A study of Mus musculus with 9 samples.

Results

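Phosphocholine and phosphoethanolamine are the phosphorylated head groups from which the liver builds phosphatidylcholine and phosphatidylethanolamine. The 9 genes named for this pathway were the kinases Etnk1, Etnk2, Chka and Chkb, the cytidylyl transferases Pcyt1a and Pcyt2, the terminal transferase Cept1, the methyltransferase Pemt and the phospho-lyase Etnppl. A gene was taken where a probe set carried its symbol alone, and where a gene had several such probe sets the one with the highest mean over all 9 arrays was used. This gave 6 members, Etnppl, Etnk1, Chka, Pcyt1a, Pcyt2 and Pemt, of 22180 genes in all. Etnk2, Chkb and Cept1 had no probe set with a single symbol and were not analysed here. The probe set of each gene was chosen by its mean level over all arrays, which uses no group, and that mean is given as a description. The genes themselves were selected on earlier results of these same arrays, so the differences between groups below describe the members and support no claim that the pathway stands apart.

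RNA came from the livers of 9 female mice, 3 individual mice in each of 3 groups, with 1 Affymetrix whole-transcript array per mouse. Control mice carried floxed alleles of both SMRT and NCoR (SMRT and NCoR fl/fl) with no deletion, SMRT KO mice had a liver-specific deletion of SMRT, and in double KO mice the deletion covered NCoR as well. SMRT and NCoR are corepressors that nuclear receptors recruit to hold target genes at a low level. All mice were euthyroid, of a mixed 129SV/B6 background, aged 7 to 9 weeks and fed standard chow. The transgene that made the deletion liver-specific, and the NCoR allele of the SMRT KO mice, are not given in the labels. No group lacked NCoR alone, so its loss is seen here only in mice that also lacked SMRT, and any difference in genetic background between groups cannot be told apart from genotype.

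In the Kennedy pathway, choline kinase and ethanolamine kinase phosphorylate the free bases, the cytidylyl transferases activate the phosphorylated base with CTP, and a transferase joins it to diacylglycerol. The liver has a further route, in which Pemt methylates phosphatidylethanolamine to phosphatidylcholine. Etnppl works in the opposite sense to the kinases: it splits phosphoethanolamine into ammonia, phosphate and acetaldehyde, which removes it from phospholipid synthesis.

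The promoters of Etnppl and Chka are shown because these members had the largest differences between groups. RefSeq (GRCm38.p6) gave 14 promoter windows for 8 of the 9 named genes, with no entry for Pcyt2. The bases before the start were searched on both strands for the nuclear receptor half-sites AGGTCA and GGGTCA, direct repeats of AGGTCA spaced by 1 or 4 bases (which contain AGGTCA), the TATA box TATAAA and the E-box CACGTG. The 250 bases before the first Etnppl start (chr3:130617198-130617447, plus strand) and the Chka start (chr19:3851523-3851772, plus strand) held no match to these letters, so no base is in capitals.
Etnppl: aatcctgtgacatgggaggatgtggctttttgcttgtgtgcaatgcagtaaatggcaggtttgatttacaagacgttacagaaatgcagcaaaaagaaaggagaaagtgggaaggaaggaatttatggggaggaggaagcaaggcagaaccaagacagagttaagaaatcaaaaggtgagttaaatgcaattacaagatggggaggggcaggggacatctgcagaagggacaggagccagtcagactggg
Chka: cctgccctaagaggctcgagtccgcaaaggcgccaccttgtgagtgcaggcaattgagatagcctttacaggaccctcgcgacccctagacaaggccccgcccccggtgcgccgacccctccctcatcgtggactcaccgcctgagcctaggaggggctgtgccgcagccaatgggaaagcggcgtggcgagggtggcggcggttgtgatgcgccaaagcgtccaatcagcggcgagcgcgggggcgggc
A second Etnppl start lies 127 bases further on, and a GGGTCA match stands on the opposite strand 13 to 18 bases before it, in capitals in these 30 bases (chr3:130617545-130617574, plus strand).
Etnppl site: ttaaaaggggaaTGACCCtaggtggttaat
GGGTCA was found in 11.6% and AGGTCA in 14% of all 32851 RefSeq windows of 250 bases, and either of them in 23.8%, against 3 of the 14 member windows. TATAAA was found in 12.4% and CACGTG in 6.02% of all windows. The Etnppl sequence had 46% G and C and the Chka sequence 68%. A match describes the letters alone and does not show that a factor binds.

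Array medians lay between 5.96 and 6.02 (log2 values) and array correlations between 0.987 and 0.992 within groups and 0.983 and 0.989 between groups. Member values ran from 7.67 to 11.2, above 5.42, which is the 90th percentile of the mean levels of 1394 olfactory and vomeronasal receptor genes, taken here as a guide to background. All 10 hepatocyte markers, among them albumin, lay above that level too. The levels of the deleted corepressor genes were not analysed here, so the labelled genotypes stand unchecked. A gene was called where limma, fitted to all 22180 genes over the 9 arrays, gave a Benjamini-Hochberg adjusted p under 0.05.

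Etnppl was the member that differed most. It fell in double KO livers, to 4.51-fold below SMRT KO livers and 2.50-fold below control livers. Its log2 values were 10.08, 9.43 and 10.06 in the 3 control livers, 10.43, 10.44 and 11.24 in the SMRT KO livers, and 8.64, 8.38 and 8.57 in the double KO livers. All double KO values lay below all control values, and all control values lay below all SMRT KO values. The group means were 9.85 ± 0.370 for control, 10.7 ± 0.464 for SMRT KO and 8.53 ± 0.131 for double KO (log2 values, SD, n = 3 each). In a bulk liver sample, fewer cells of a type and less RNA per cell cannot be told apart.

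Against SMRT KO, the log2 fold change of Etnppl in double KO livers was -2.17 (standard error 0.235, 95% interval -2.70 to -1.64, limma adjusted p = 0.00367). It was the 4th lowest of all 22180 log2 fold changes in that comparison. The call held in all 15 alternative fits, with adjusted p from 0.0025 to 0.0239. Against control, the log2 fold change was -1.32 (standard error 0.235, 95% interval -1.85 to -0.79, limma adjusted p = 0.0389), the 26th lowest of all genes. That call was lost without control replicate 1 (adjusted p = 0.14), control replicate 3 (0.155), SMRT KO replicate 1 (0.0546), SMRT KO replicate 2 (0.0539) or double KO replicate 1, 2 or 3 (0.109, 0.174 and 0.115), while the log2 fold change stayed between -1.54 and -1.21.

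In SMRT KO against control livers Etnppl had a log2 fold change of 0.85, a 1.80-fold higher mean (standard error 0.235, 95% interval 0.32 to 1.38), and did not pass (limma adjusted p = 0.595, range 0.421 to 0.942 over the alternatives). It was the 19th highest log2 fold change of all genes. SMRT KO replicate 3, at 11.24, had the highest value of the 9 livers, and without it the log2 fold change was 0.58. The order of group means was SMRT KO, control, double KO, and of the neighbours in that order SMRT KO and control did not differ past the threshold. The comparisons share groups, so the values of one are not independent of the others.

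**Figure D1:**
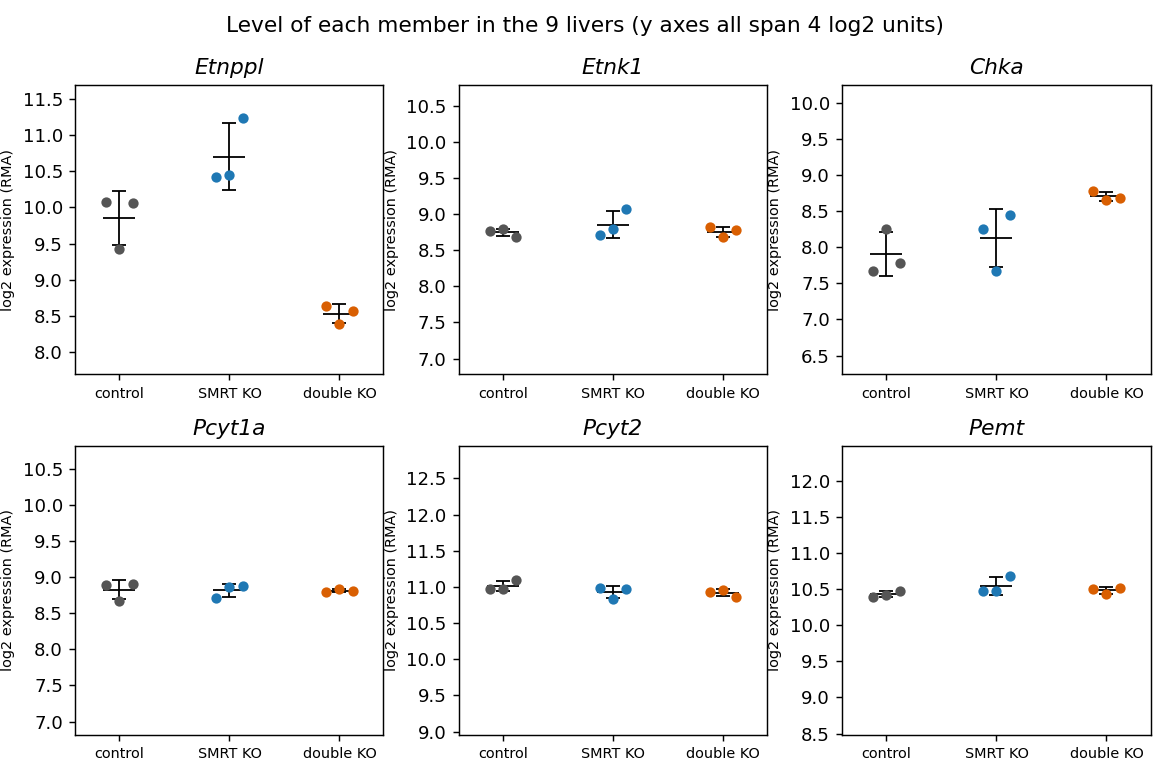
Level of each of the 6 members (y axis, log2 expression after RMA) in the 3 groups (x axis), with 1 point per liver and the mean and SD as black lines; every y axis spans the same number of log2 units. Etnppl is lowest in the 3 double KO livers (8.38 to 8.64), Chka is highest there (8.65 to 8.78), and the other 4 members stay close to their means.

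Markers of other liver cells are given beside this result. All 11 macrophage and Kupffer cell markers were above 0 in SMRT KO against control (median log2 fold change 0.24) and all 11 were below 0 in double KO against SMRT KO (median -0.23), with 0 called by limma in either. At an unadjusted p under 0.05 there were 5 and 5 of them, where 1331 and 2323 of all 22180 genes lay under it. Their mean log2 level per liver was 8.36 to 8.59 in control, 8.57 to 8.82 in SMRT KO and 8.36 to 8.54 in double KO, and 0 of the 11 lay under the background guide. In double KO against control, where Etnppl fell, 5 of these markers were above 0 and 6 below, with a median of -0.00032. The part of these cells in the Etnppl difference was not tested. Hepatocyte markers had mean levels of 12.62 to 12.68, 12.59 to 12.65 and 12.47 to 12.53 in the same order, so the double KO livers were the lowest. Of these 10 markers 8 were below 0 in double KO against control and 8 against SMRT KO. In each, 3 had an unadjusted p under 0.05, where 10.8% and 10.5% of all genes lay under it. Serpina1a was called lower in double KO against control, 1 of the 10, where 0.320% of all genes were called lower. Of 8 stellate cell markers Lrat, which esterifies retinol, was called lower in double KO against control (log2 fold change -1.80) and against SMRT KO (-1.91). It was the 1 called in each, where 0.320% and 0.437% of all genes were called lower. At an unadjusted p under 0.05 there were 3 and 2 of the 8, where 10.8% and 10.5% of all genes lay under it. The signs of this list were mixed, with 3 of 8 above 0 (up to 0.31) against control and 2 of 8 (up to 0.38) against SMRT KO. Its mean level, Lrat included, was 7.96 to 8.13 in control, 7.89 to 8.07 in SMRT KO and 7.67 to 7.96 in double KO livers. Markers of endothelium, bile duct, lymphocytes, neutrophils, adipocytes and pancreatic acini had 0 members called by limma in any comparison, with at most 1 member of a list at an unadjusted p under 0.05. Endothelial markers had mean levels of 9.01 to 9.12 in control, 9.13 to 9.29 in SMRT KO and 9.01 to 9.29 in double KO livers. In SMRT KO against control 6 of these 8 were above 0 (up to 0.77) and 2 below, with a median of 0.03.

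The choline and ethanolamine kinases catalyse the first step of the Kennedy pathway. Chka encodes choline kinase alpha, which makes phosphocholine. Its log2 values were 7.67, 8.25 and 7.78 in control livers, 8.25, 7.68 and 8.45 in SMRT KO livers and 8.78, 8.65 and 8.69 in double KO livers. The double KO values lay above all 6 others, while control and SMRT KO values overlapped. The means were 7.90 ± 0.304, 8.13 ± 0.402 and 8.70 ± 0.066 (SD, n = 3 each).

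The log2 fold change of Chka was 0.80 in double KO against control, a 1.74-fold higher mean (standard error 0.199, 95% interval 0.35 to 1.25), and it did not pass (limma adjusted p = 0.137, range 0.0545 to 0.346 over the alternatives). Against SMRT KO it was 0.58 (95% interval 0.13 to 1.02, limma adjusted p = 0.31), and in SMRT KO against control 0.23 (95% interval -0.22 to 0.67, limma adjusted p = 0.926). These intervals are for a single gene and are not adjusted for the number of genes. Chka was also the 1 member with a second single-symbol probe set. That probe set had a mean of 5.36, just under the background guide of 5.42, with values from 5.16 to 5.53 on both sides of it. Its log2 fold changes were 0.05 in double KO against control and 0.05 against SMRT KO, so it did not show the rise. Whether this dim probe set measures Chka cannot be told here.

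Etnk1 encodes an ethanolamine kinase, the enzyme that makes phosphoethanolamine. Its log2 values were 8.76, 8.79 and 8.69 in control, 8.71, 8.79 and 9.06 in SMRT KO and 8.82, 8.68 and 8.77 in double KO livers. The groups overlapped, and SMRT KO replicate 3 was again the highest liver. The log2 fold change was 0.11 in SMRT KO against control (95% interval -0.10 to 0.32), 0.01 in double KO against control (-0.20 to 0.22) and -0.10 in double KO against SMRT KO (-0.31 to 0.11). Etnppl, which consumes phosphoethanolamine, was called in double KO livers, while Etnk1 was not called in any comparison (limma adjusted p = 0.922, 0.981 and 0.807). Etnppl and Etnk1 were not tested against each other. The other named ethanolamine kinase, Etnk2, was not analysed, so the kinase step is seen here through Etnk1 alone.

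The cytidylyl transferases catalyse the regulated step of each branch of the Kennedy pathway. Pcyt1a, of the choline branch, had log2 values of 8.89, 8.67 and 8.90 in control, 8.71, 8.86 and 8.88 in SMRT KO and 8.80, 8.84 and 8.81 in double KO livers. Its log2 fold changes were -0.0067, -0.0087 and -0.0020 in SMRT KO livers against control and in double KO livers against control and against SMRT KO, and the 3 intervals together ran from -0.19 to 0.18. Pcyt2, of the ethanolamine branch, had log2 values of 10.97, 10.97 and 11.10 in control, 10.98, 10.83 and 10.98 in SMRT KO and 10.93, 10.96 and 10.86 in double KO livers. The double KO values of Pcyt2 lay just below all control values, with a log2 fold change of -0.09 (95% interval -0.25 to 0.06, limma adjusted p = 0.718).

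Pemt, which converts phosphatidylethanolamine to phosphatidylcholine, varied little. Its log2 values were 10.39, 10.42 and 10.47 in control, 10.47, 10.47 and 10.68 in SMRT KO and 10.50, 10.43 and 10.52 in double KO livers. The log2 fold change was 0.11 in SMRT KO against control (95% interval -0.05 to 0.28), 0.05 in double KO against control (-0.11 to 0.22) and -0.06 in double KO against SMRT KO (-0.23 to 0.10). For Etnk1, Pcyt1a, Pcyt2 and Pemt together, all 95% intervals lay within -0.31 to 0.32.

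By count, 0 of the 6 members were called by limma in SMRT KO against control, where 0.00451% of all genes were called, and 1 had an unadjusted p under 0.05 (1331 of all 22180 genes). In double KO against control 1 of 6 was called, lower, where 0.843% of all genes were called, 0.320% lower and 0.523% higher. In double KO against SMRT KO 1 of 6 was called, lower, where 1.19% of all genes were called, 0.437% lower and 0.748% higher. In each of the last 2 comparisons the called gene was Etnppl, and 2 of 6 members, Etnppl and Chka, had an unadjusted p under 0.05 (10.8% and 10.5% of all genes). Groups did not overlap for 1 member in SMRT KO against control, Etnppl, which was higher (8.16% of all genes, 3.80% higher and 4.36% lower). They did not overlap for 3 members in double KO against control, Chka higher and Etnppl and Pcyt2 lower (15.0% of all genes, 7.73% higher and 7.25% lower). In double KO against SMRT KO this held for 2 members, Chka higher and Etnppl lower (13.8% of all genes, 7.54% higher and 6.21% lower). The members' median log2 fold changes were 0.11, 0.0021 and -0.04 in these comparisons, against 0.00087, 0.0036 and 0.0017 for all genes.

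**Figure D2:**
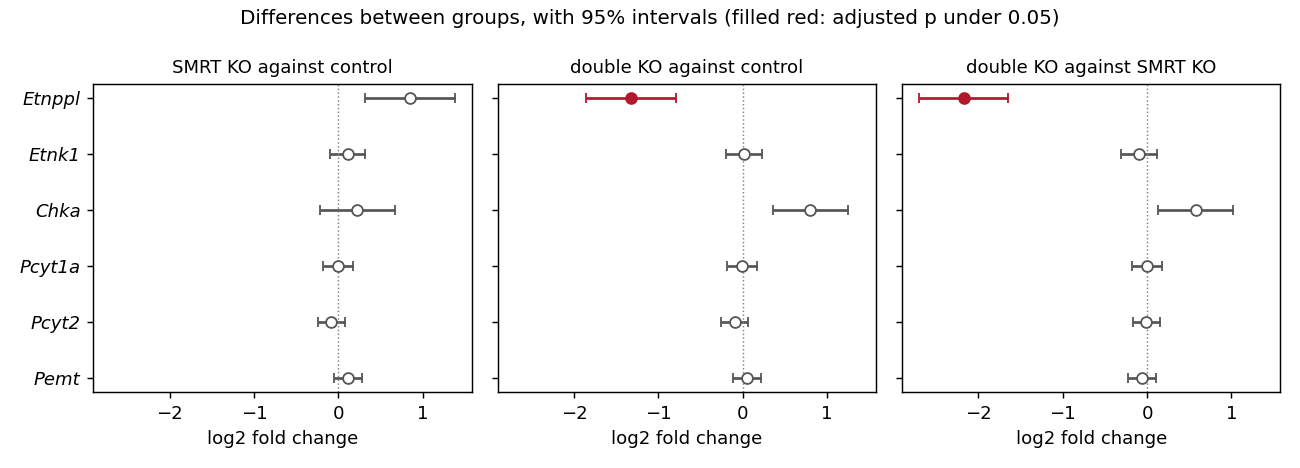
Log2 fold change (x axis) of the 6 members (y axis) in the 3 comparisons, with 95% intervals from limma; filled red points passed an adjusted p of 0.05. Etnppl is at -1.32 and -2.17 in the comparisons of double KO livers, and the intervals of the 4 members other than Etnppl and Chka span 0 throughout.

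The genes around the pathway were followed in 9 lists with 62 measured members of 64. In SMRT KO against control 0 of the 62 were called by limma, with 3 at an unadjusted p under 0.05 (1331 of all 22180 genes). In each comparison of double KO livers 3 were called, all higher, where 0.843% (against control) and 1.19% (against SMRT KO) of all genes were called. At an unadjusted p under 0.05 there were 15 and 17 of the 62, where 10.8% and 10.5% of all genes lay under it. The median log2 fold change over the 62 genes was -0.02 in each of the 3 comparisons.

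Of 18 genes of phospholipid remodelling and breakdown, 2 rose and 0 fell in double KO livers against control, where 0.523% of all genes were called higher and 0.320% lower. Against SMRT KO 3 rose and 0 fell, where 0.748% of all genes were called higher and 0.437% lower. The list medians were 0.04 and -0.04, and 7 and 10 of the 18 genes lay below 0. Pla2g6, a phospholipase A2 that releases a fatty acid from phospholipids, had log2 values of 8.21, 8.35 and 8.12 in control, 8.62, 8.29 and 8.42 in SMRT KO and 9.16, 8.99 and 9.42 in double KO livers. The double KO livers were higher than all others, with a log2 fold change of 0.96 against control (standard error 0.124, limma adjusted p = 0.0101) and 0.74 against SMRT KO (adjusted p = 0.0242). The call against control held in all 15 alternative fits (adjusted p up to 0.0494). Among the fits without a mouse, the call against SMRT KO was lost without SMRT KO replicate 2 (0.0761) or 3 (0.0786) or double KO replicate 1 (0.0805) or 3 (0.0656). It was also lost when the control arrays stayed out of the fit (0.0837).

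Lpcat3, which puts polyunsaturated fatty acids into lysophosphatidylcholine, had log2 values of 11.16, 11.19 and 11.16 in control, 11.14, 11.05 and 11.22 in SMRT KO and 11.55, 11.65 and 11.90 in double KO livers. It rose by 0.53 on the log2 scale against control (limma adjusted p = 0.0367) and 0.56 against SMRT KO (0.0237). The call against control held in only 1 of the 9 fits without a mouse, the fit without double KO replicate 1, with adjusted p up to 0.136. The call against SMRT KO was lost without SMRT KO replicate 1 (0.0821) or 2 (0.0755) or double KO replicate 2 (0.0826), and also with the control arrays out of the fit (0.0936).

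Gpcpd1, a phosphodiesterase that splits glycerophosphocholine and so returns choline, had log2 values of 11.48, 11.26 and 11.59 in control, 11.19, 10.73 and 10.97 in SMRT KO and 11.53, 11.82 and 12.15 in double KO livers. SMRT KO livers were the lowest and did not overlap with control (log2 fold change -0.48, limma adjusted p = 0.775). Groups did not overlap for 8.16% of all genes in that comparison, 4.36% lower. Double KO and control values overlapped, with a log2 fold change of 0.39 that did not pass (limma adjusted p = 0.451). The rise from SMRT KO to double KO was 0.87 on the log2 scale (limma adjusted p = 0.0473). This call held in 1 of the 9 fits without a mouse, the fit without double KO replicate 1, with adjusted p up to 0.168. Pnpla6, a lysophospholipase that makes glycerophosphocholine, was the lowest of the list in double KO against control (log2 fold change -0.30, limma adjusted p = 0.0862).

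Of the genes listed around the exchange of phosphocholine, phosphoethanolamine or ethanolamine with sphingolipids and ethanolamides, in either direction, Smpd3 was the 1 that was called. Smpd3, a neutral sphingomyelinase that releases phosphocholine from sphingomyelin, rose by 0.66 on the log2 scale in double KO against control (limma adjusted p = 0.0379). Smpd3 did not pass in double KO against SMRT KO (0.43, limma adjusted p = 0.164) or in SMRT KO against control (0.23, limma adjusted p = 0.862). Against SMRT KO it passed in 1 of the 9 fits without a mouse (limma adjusted p = 0.0366). Its log2 values were 6.78, 6.53 and 6.65 in control, 6.92, 6.81 and 6.92 in SMRT KO and 7.04, 7.43 and 7.47 in double KO livers. The call against control held in 1 of the 9 fits without a mouse, the fit without double KO replicate 1, with adjusted p up to 0.167. It was the 1 called gene of 5 on that list, whose lowest log2 fold change was that of Sgms2, a sphingomyelin synthase (-0.21, adjusted p = 0.686). Of 9 genes listed around the routes between sphingolipids or ethanolamides and phosphoethanolamine or ethanolamine, limma called 0 in each comparison (0, 1 and 2 at an unadjusted p under 0.05). Faah, which releases ethanolamine from fatty acid ethanolamides, was the lowest of these against control at -0.23 (adjusted p = 0.217), and Abhd4, an N-acyl phospholipid lipase, the highest at 0.13 (adjusted p = 0.731).

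Of the other lists limma called 0 genes in each comparison. Among 3 other Kennedy pathway enzymes, Chpt1, a choline phosphotransferase, had a log2 fold change of -0.23 in double KO against control and Selenoi, an ethanolamine phosphotransferase, 0.10. The phosphatidylserine route, 3 genes, ran from Ptdss1 at -0.02 to Ptdss2 at 0.29 (adjusted p = 0.22); both are phosphatidylserine synthases. The 10 genes of choline oxidation and methyl supply ran from Gamt, which consumes methyl groups to make creatine, at -0.25 to Dmgdh, which oxidises dimethylglycine, at 0.19. The 7 transport genes ran from Mfsd2a, a lysophosphatidylcholine transporter, at -0.31 to Slc44a1, a choline transporter, at 0.52 (adjusted p = 0.155). The 3 double KO values of Slc44a1 (9.77, 10.05 and 9.88) lay above the control values (9.28, 9.44 and 9.41). Groups did not overlap for 15.0% of all genes in that comparison, 7.73% higher. At an unadjusted p under 0.05 these 4 lists had 0, 1, 2 and 2 genes in double KO against control, 1, 1, 2 and 2 in double KO against SMRT KO, and 0 each in SMRT KO against control.

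Lpin1, a phosphatidate phosphatase that supplies diacylglycerol to the last step of the pathway, had log2 values of 11.67, 11.46 and 11.49 in control, 12.08, 10.76 and 11.29 in SMRT KO and 10.03, 10.32 and 10.71 in double KO livers. Its double KO values were the lowest, with a log2 fold change of -1.19 against control (limma adjusted p = 0.13) and -1.02 against SMRT KO (0.184). Double KO values lay below all control values for 7.25% of all genes and below all SMRT KO values for 6.21%. The other end of that list of 3 genes was Lpin3 at -0.02. The 4 relatives of Etnppl, aminotransferases and a lyase of similar fold, had 0 genes called by limma in each comparison (0, 1 and 1 at an unadjusted p under 0.05). They ran from Agxt2 at -0.29 (adjusted p = 0.181) to Phykpl, the lyase for phosphohydroxylysine, at 0.03 in double KO against control.

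**Figure D3:**
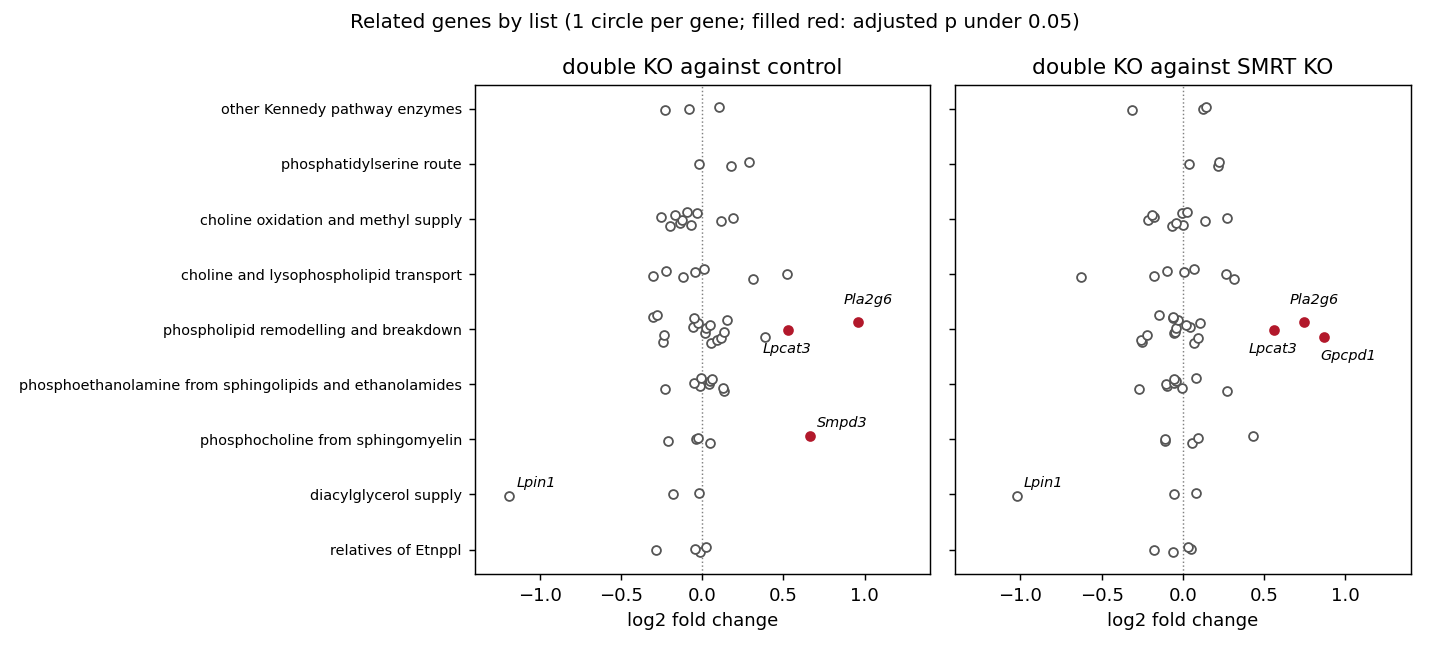
Log2 fold change (x axis) of 62 related genes in 9 lists (y axis) for double KO livers against control and against SMRT KO, with 1 circle per gene; filled red circles passed an adjusted p of 0.05 and are named. All called genes lie above 0, and Lpin1, named but not called, is the lowest at -1.19 and -1.02.

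The genes whose values over the 9 livers were most like those of Etnppl were Saa4, a constitutive serum amyloid A (Pearson r = 0.991), Mrpl39, of the mitochondrial ribosome (0.985), S1pr5, a sphingosine 1-phosphate receptor (0.969), Atp6v1e1, of the vacuolar proton pump (0.958), and Pola2, of DNA polymerase alpha (0.956). Those most opposed were Sel1l3 (-0.978), Cs, the citrate synthase (-0.977), Ptges2 (-0.973), Epha2, a receptor tyrosine kinase (-0.965), and Sec14l2, a tocopherol-binding protein (-0.963). These correlations are descriptions over 9 arrays that share the 3 groups, chosen as the ends of 22177 genes.

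The ranges of these genes were smaller than that of Etnppl. Saa4 had log2 values of 12.27, 12.14 and 12.31 in control, 12.38, 12.42 and 12.58 in SMRT KO and 11.84, 11.82 and 11.78 in double KO livers. As for Etnppl, control replicate 2 was its lowest control liver and SMRT KO replicate 3 its highest liver. Its log2 fold change was -0.43 in double KO against control (limma adjusted p = 0.0346) and -0.65 against SMRT KO (0.0044). Sel1l3 had log2 fold changes of 0.52 (0.0225) and 0.90 (0.00186) in the same comparisons. Of the pathway genes Faah stood 8th of the 22177 genes (r = 0.948), while the other 5 members had r from -0.593 for Chka to 0.488 for Etnk1.

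**Figure D4:**
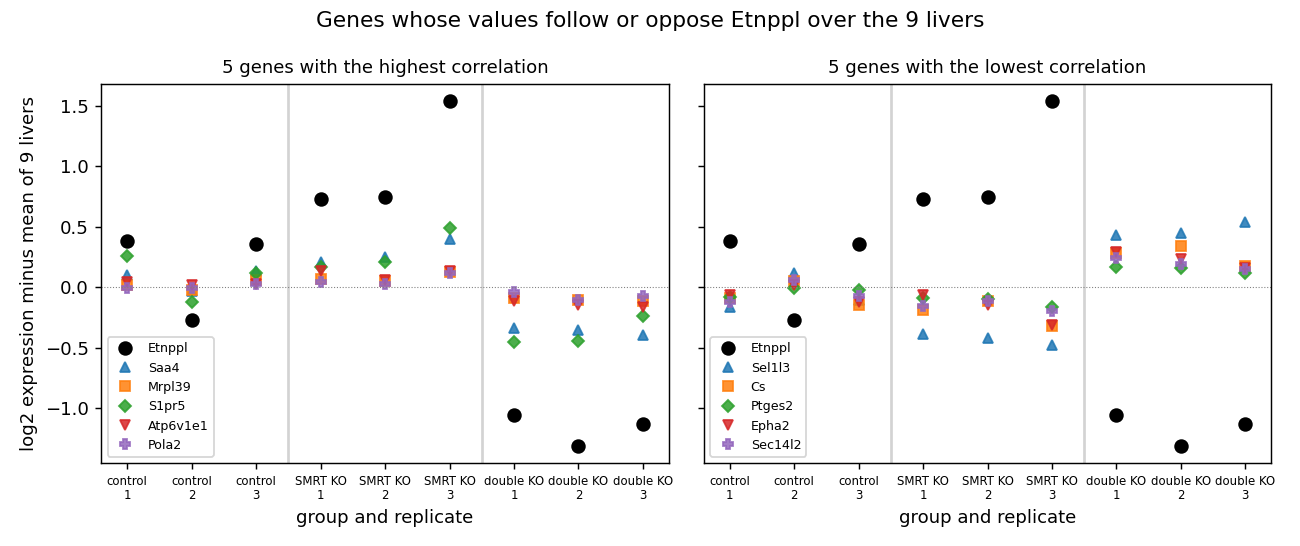
Log2 expression minus the gene's mean over the 9 livers (y axis) by group and replicate (x axis), for Etnppl in black beside the 5 most like genes (left) and the 5 most opposed genes (right). In both sets the double KO values lay apart from those of the other groups, as for Etnppl, over a smaller range. Control and SMRT KO values overlapped for some genes of each set, such as S1pr5 and Cs, but not for Etnppl.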

How the data were processed

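The submitters' processing notes name RMA, the method by which the authors made the deposited log2 values (1 for each array and probe set). RMA subtracts background, quantile-normalizes the arrays and summarises the probes. The sources used here give no version of it. Quantile normalization hides a shift common to the majority of genes. RNA amounted to 200 ng per liver. Of 41345 probe sets, 23521 had exactly 1 gene symbol in the platform annotation, 1814 had several and 16010 were not listed. Exact ties between arrays occurred in 51.4% of genes and were kept.

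Groups came from sample titles. A single limma model (version 3.58.1, under R 4.3.3) was fitted to all genes with moderated two-sided tests from eBayes (6 residual and 3.36 prior degrees of freedom) and was tested on simulated data. An exact permutation test of 3 against 3 cannot go below p = 0.1 and was not used. The number of arrays limits the precision.

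The members and lists were chosen with earlier results of these data known. Named genes were all members, every list gene called in a comparison, both ends of each list in double KO against control, and the 5 profiles at each end for the member with the smallest adjusted p. The pattern over markers, Lrat, Serpina1a and the remarks on single livers were chosen after values were seen. Alternatives were the mean over probe sets, leaving out dim genes, only the 2 groups compared, a replicate block, cyclic loess, a trended robust variance and leaving out each mouse; for related genes they were added after seeing the data.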

Additional observations from a re-analysis of the deposited data

How the results depend on the processing

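Across the 15 alternatives, the members called numbered 0 in SMRT KO against control and 1 in double KO against SMRT KO in every fit; in double KO against control they ranged from 0 to 1 in the 9 fits without a mouse and were 1 in the other 6. The called genes of all 22180, 1 in SMRT KO livers against control and 187 and 263 in double KO livers against control and against SMRT KO, ranged from 0 to 23, 61 to 179 and 101 to 234 without a mouse, and were 0, 109 and 124 with only the 2 groups compared. With the replicate number as a block they were 2, 152 and 195, and Etnppl kept its calls (adjusted p = 0.0269 and 0.00667). The calls of Lpcat3 and Smpd3 against control and of Gpcpd1 and Pla2g6 against SMRT KO were lost under that block (0.0516, 0.0799, 0.0583 and 0.0566) and with only the 2 groups compared (0.098, 0.117, 0.135 and 0.0837), and that of Lpcat3 against SMRT KO with only the 2 groups (0.0936). Replicates share only a number: same-numbered livers had correlations of -0.0845 to 0.117 in their deviations from group means, and 4 of 9 livers correlated best with their own number. Fits with fewer mice or groups have fewer degrees of freedom.

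Signs changed only for log2 fold changes near 0. In SMRT KO against control Pcyt1a was 0.0035 after cyclic loess and -0.082 to 0.044 without a mouse, and Lpcat3 -0.073 to 0.014. In double KO against control Pcyt1a ran from -0.084 to 0.031 and Etnk1 from -0.017 to 0.051 without a mouse. In double KO against SMRT KO the ranges were -0.053 to 0.029 for Pcyt1a, -0.062 to 0.017 for Pcyt2, -0.10 to 0.0092 for Pemt and -0.17 to 0.0094 for Etnk1. With the mean over both probe sets Chka had 0.43 in double KO against control in place of 0.80 (adjusted p = 0.0702).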
